A study of Mus musculus with 62 samples.

Results

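The regional contrast described here set the cortex against the dorsal hippocampus (dHPC) of mice that had received saline and no ethanol. Its members were 12 of the 62 poly(A) RNA libraries of the series, 6 of cortex and 6 of dHPC, chosen by their labelled region and treatment, with the injection paradigm kept as a covariate. All donors were male C57BL/6J mice, aged 8 to 10 weeks, that had received intraperitoneal saline either once (acute, 3 cortex and 3 dHPC libraries) or on 10 consecutive days (chronic, 3 and 3), and tissue was taken 4 h after the only or final dose. The 12 libraries came from 8 mice, of which 4 gave both regions. Frozen brains had been cut into coronal slices with razor blades and each region taken with a corer, so that a punch can hold neighbouring tissue. Libraries of both regions were made with the same non-directional kit and sequenced in batch 1 on the same platform, so that region did not coincide with a batch in this contrast.

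The neocortex and the hippocampus both arise from the dorsal telencephalon, and their excitatory neurons share much of a glutamatergic program. Neocortical neurons lie in layers, with intratelencephalic neurons marked by Cux2 and Rorb in the upper layers and deep-layer neurons marked by genes such as Fezf2, Bcl11b, Tbr1 and Foxp2. The hippocampus holds the dentate gyrus, whose granule neurons carry Prox1 and in which new neurons are made in adult life, and the fields CA1, CA2 and CA3 of pyramidal neurons. Many genes that mark a cortical layer also mark a hippocampal field, for example Wfs1 in CA1, and each is read here as a level in dissected tissue, not as a cell type. Fewer cells of a type and less RNA per cell cannot be told apart in bulk tissue.

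Total counts on genes ran from 44583920 to 64973064 per library, with a median of 53546748 in cortex and 50388901 in dHPC. Levels are given as counts per 1000000 counts of the library (CPM) after scaling by trimmed mean of M values (TMM), and log2 fold changes are dHPC over cortex, so that a positive value means higher in dHPC. Errors of log2 fold changes are standard errors (SE), and FDR is the Benjamini-Hochberg adjusted p of edgeR's quasi-likelihood F test over all genes tested. Because CPM is not divided by transcript length, levels are compared between libraries and not between genes. The kit keeps no strand and pairs were counted as reverse-stranded, and 14712 of the 27224 tested genes (54.1%) share exonic positions with a gene on the opposite strand. For such a gene the reads of the gene and of its antisense partner cannot be told apart, and the named genes concerned are given at the end of each paragraph.

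In the chronic group, dHPC replicates 5 and 6 stood apart from the other dHPC libraries in marker genes of neighbouring tissue. Replicate 5 had a summed level of 2891 CPM for 13 genes of striatal projection neurons, against 213.2 to 971.4 CPM in the other dHPC libraries and 277.4 to 395.9 CPM in cortex. Replicate 6 had 41.57 CPM for 11 genes of the choroid plexus, against 2087 to 3422 CPM in the other dHPC libraries and 10.89 to 133.4 CPM in cortex. The 6 dHPC libraries also held more of the thalamic list (79.47 to 182.2 CPM, against 48.28 to 53.73 CPM in cortex). Each count of list genes below was therefore also made without replicate 5 and without replicate 6, and is given where a direction moved by more than 1 gene or by 1.5 times or more. In the other lists a count moved by at most 1 gene. Over all genes 28.1% were called higher in dHPC and 26.4% higher in cortex without replicate 5, 28.3% and 26.4% without replicate 6, and 24% and 21.7% with mouse as a block, a fit that compares the regions within the 4 mice that gave both. In the acute libraries alone the shares were 25.8% and 23.2%, and in the chronic libraries alone 19.6% and 17.9%. The part of the neighbouring tissue in any single gene's difference was not tested.

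**Figure D1:**
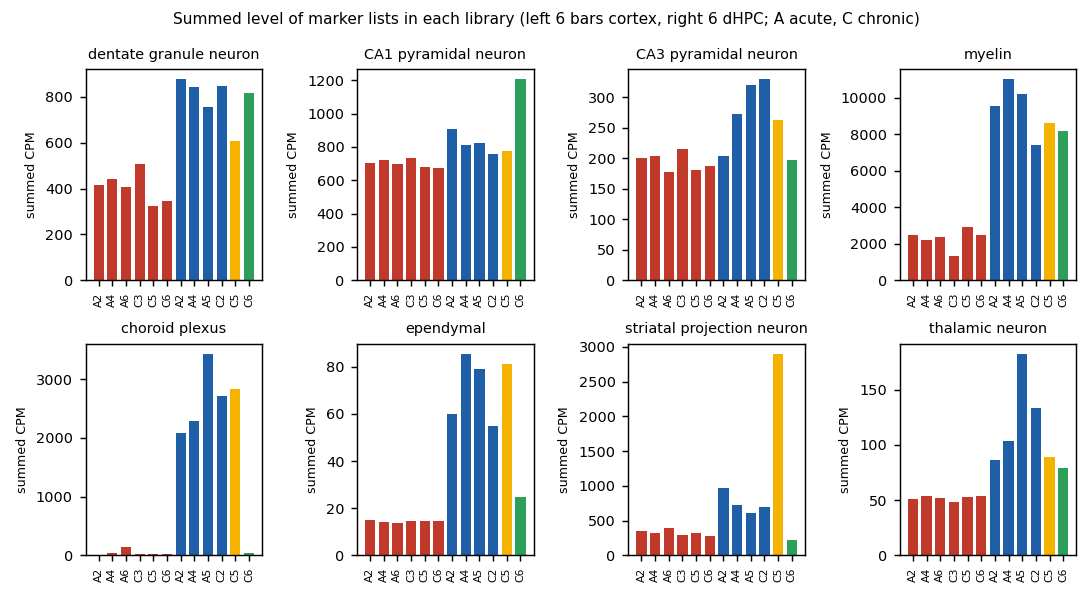
Summed CPM (vertical axes, from 0) of the genes of 8 marker lists in each of the 12 libraries, with 6 bars of cortex in red on the left and 6 bars of dHPC on the right of each panel (A acute, C chronic, with the mouse number). The dHPC chronic replicate 5 library (yellow) reached 2891 CPM for the striatal list, and dHPC chronic replicate 6 (green) had 41.57 CPM for the choroid plexus list and the highest CA1 sum (1205 CPM).

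Of 27224 genes tested, 15055 (55.3%) differed between the regions at an FDR below 0.1. At that threshold 7864 genes (28.9%) were higher in dHPC and 7191 (26.4%) were higher in cortex. At least 2-fold differences were called for 2250 genes (8.26%) higher in dHPC and for 1741 genes (6.4%) higher in cortex. All 6 dHPC libraries lay above all 6 cortex libraries for 3987 genes (14.6%), and the reverse held for 3722 genes (13.7%). The median log2 fold change over all tested genes was 0.01. These shares are the background against which the lists below are read, since with so many genes called a list with a call in most of its members is not by itself unusual.

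Genes of cortical layers 2 to 4 were mostly higher in cortex: 11 of 14 were called higher there, 10 of them at least 2-fold, and 2 were called higher in dHPC (median log2 fold change -2.17). Cux2, a homeodomain factor of upper-layer neurons (GRCm39 5:121994429-122188165, minus strand), ran from 141 to 216 CPM in cortex (median 167) and from 15.6 to 28.3 CPM in dHPC (median 19.7), a log2 fold change of -3.08 ± 0.13 (SE, FDR = 1.32e-10). Rorb, a retinoid-related nuclear receptor that marks layer 4 (19:18907969-19088560, minus strand), ran from 43.0 to 67.4 CPM in cortex (median 47.9) and from 8.496 to 11.5 CPM in dHPC (median 9.94) and differed by -2.33 ± 0.11 (SE, FDR = 8.24e-10). Neither gene overlapped between the regions. Lamp5, a lysosome-associated membrane protein of upper-layer neurons and of a class of interneurons, ran from 209 to 304 CPM in cortex (median 282) and from 32.2 to 47.8 CPM in dHPC (median 38.5), a difference of -2.76 ± 0.12 (SE, FDR = 1.84e-10). Rspo1, a secreted enhancer of Wnt signalling, ran from 16.3 to 22.9 CPM in cortex (median 18.5) and from 0.827 to 3.00 CPM in dHPC (median 1.39) and differed by -3.65 ± 0.22 (SE, FDR = 6.57e-09). Agmat, which encodes agmatinase, was the member with the largest difference, at -4.42 ± 0.34 (SE, FDR = 6.18e-08), and its dHPC libraries held at most 0.133 CPM against at least 1.29 CPM in cortex. In all 3 genes the 6 cortex libraries lay above the 6 dHPC libraries. The exceptions were Mdga1, which encodes a membrane-anchored partner of neuroligins, higher in dHPC without overlap (1.94 ± 0.13, SE, FDR = 1.24e-08), and Wfs1, the wolframin gene that also marks CA1, which ran from 65.8 to 131 CPM in cortex (median 80.6) and from 125 to 189 CPM in dHPC (median 153) (5:37123448-37146549, minus strand) and was higher in dHPC by 0.83 ± 0.14 (SE, FDR = 0.000236) with overlapping libraries. Opposite-strand exons overlap Agmat, Mdga1 and Wfs1.

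The deep-layer lists did not follow the upper-layer one. Of 14 layer 5 genes 7 were called higher in dHPC and 4 higher in cortex (median 0.33), and without dHPC chronic replicate 6 the counts were 5 and 5 (median 0.02). Bcl11b, the factor also known as Ctip2 that specifies subcerebral projection neurons and is present in hippocampal neurons too, ran from 27.7 to 52.4 CPM in cortex (median 41.6) and from 124 to 178 CPM in dHPC (median 141), a difference of 1.82 ± 0.12 (SE, FDR = 2.09e-08) with no overlap. Fezf2, the other defining factor of layer 5 (14:10121574-10127669, plus strand), ran from 17.8 to 30.9 CPM in cortex (median 26.2) and from 14.1 to 47.6 CPM in dHPC (median 25.2), the regions overlapped, and the difference of 0.13 ± 0.23 (SE, FDR = 0.689) was not called and was -0.17 without dHPC chronic replicate 6. Qrfpr, a neuropeptide receptor gene, ran from 2.23 to 3.17 CPM in cortex (median 2.65) and from 0.459 to 0.766 CPM in dHPC (median 0.635) and was higher in cortex by a log2 difference of -2.11 ± 0.14 (SE, FDR = 1.76e-08). Deptor, an inhibitor of mTOR signalling, was likewise higher in cortex in all libraries (-1.34 ± 0.08, SE, FDR = 6.94e-09). Opposite-strand exons overlap Deptor.

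Of 18 layer 6 genes 8 were called higher in dHPC and 1, Tbr1, higher in cortex (median 0.53), with 12 overlapping. The counts were 10 and 1 without dHPC chronic replicate 5, 11 and 1 without replicate 6, and 14 and 1 in the acute libraries alone. Tbr1, a T-box factor of layer 6 and of other glutamatergic neurons (2:61633274-61644458, plus strand), ran from 103 to 155 CPM in cortex (median 128) and from 34.2 to 46.5 CPM in dHPC (median 43.8), a difference of -1.60 ± 0.09 (SE, FDR = 4.03e-09) without overlap. Crym, which encodes a thyroid hormone-binding crystallin, ran from 15.2 to 37.0 CPM in cortex (median 22.9) and from 89.5 to 117 CPM in dHPC (median 98.9) and was higher in dHPC by 2.10 ± 0.15 (SE, FDR = 3.06e-08) without overlap. The layer 6 markers Foxp2 (6:14901348-15438022, plus strand) and Rprm (2:53974105-53975564, minus strand) were not called over all 12 libraries, but both were called higher in dHPC in the acute libraries alone (Foxp2 0.71, FDR = 0.000646, and Rprm 0.50, FDR = 0.00496), and Foxp2 also with no low-count filter (FDR = 0.0332). Foxp2 ran from 2.82 to 13.1 CPM in cortex (median 7.37) and from 3.56 to 30.3 CPM in dHPC (median 11.5), with its highest value, 30.3 CPM, in dHPC chronic replicate 5, and differed by 0.79 ± 0.39 (SE, FDR = 0.112), which fell below the threshold without dHPC chronic replicate 6 (0.99, FDR = 0.0151) or without cortex chronic replicate 5 (1.01, FDR = 0.0651). Rprm ran from 11.1 to 46.2 CPM in cortex (median 20.4) and from 21.3 to 32.9 CPM in dHPC (median 26.1) and differed by 0.28 ± 0.25 (SE, FDR = 0.373), or by 0.59 without cortex chronic replicate 5 (FDR = 0.0116). Both genes overlapped between the regions. The paper kept quantitative comparisons within a region because kits and platforms differed. Levels in striatum and dHPC are therefore not one measure and are given only as a description. Striatal libraries of saline mice came from another batch, with a directional kit and another sequencing platform (SD, n = 6 each). There Crym was at 78.97 ± 45.44 CPM in dorsal and 165 ± 36.57 CPM in ventral striatum, against 101.4 ± 10.32 CPM in dHPC. Foxp2 was at 60.19 ± 6.50 and 56.14 ± 8.82 CPM, against 13.42 ± 8.90 CPM. Rprm was at 16.41 ± 6.11 and 17.57 ± 10.44 CPM, against 27.24 ± 4.23 CPM. Tbr1 was at 31.82 ± 11.15 and 35.9 ± 18.09 CPM, against 42.97 ± 4.68 CPM. The part of neighbouring tissue was not tested. The calls of Ccn2 (FDR = 0.183) and Nxph3 (FDR = 0.21) were lost with mouse as a block.

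Transcription factors shared by pallial neurons were divided. Among 20 such genes 10 were called higher in cortex and 9 higher in dHPC (median -0.07), with 5 at least 2-fold higher in cortex and 1 in dHPC. Mef2c, an activity-regulated factor, ran from 595 to 751 CPM in cortex (median 681) and from 116 to 149 CPM in dHPC (median 130.1) and differed by -2.36 ± 0.08 (SE, FDR = 2.18e-11). It did not overlap between the regions, and Pou3f2, the Brn2 gene of upper-layer neurons, was also higher in every cortex library (-1.75 ± 0.09, SE, FDR = 1.13e-09). Neurod6, a basic helix-loop-helix factor of glutamatergic neurons, ran from 44.7 to 61.6 CPM in cortex (median 55.8) and from 104 to 171 CPM in dHPC (median 147) and was the member at least 2-fold higher in dHPC (1.38 ± 0.11, SE, FDR = 7.74e-08). Lmo3, a LIM-only cofactor, was higher in dHPC by 0.96 ± 0.10 (SE, FDR = 2.03e-06), also without overlap. Opposite-strand exons overlap Pou3f2, Neurod6 and Lmo3.

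**Figure D2:**
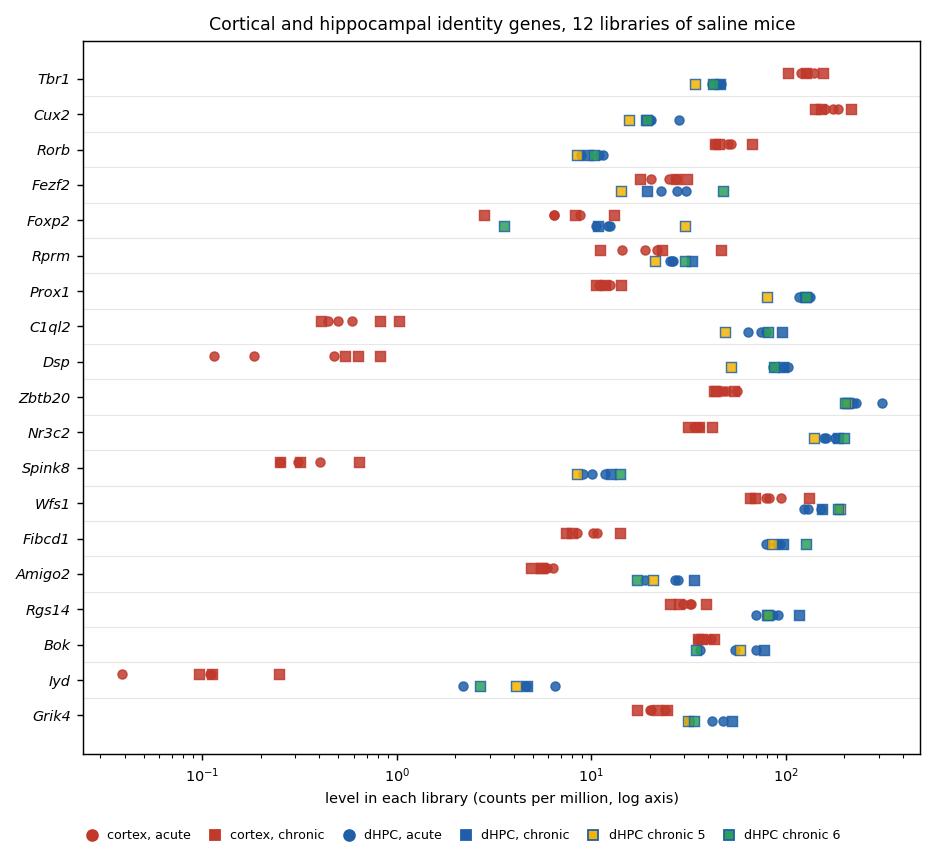
Level of 19 cortical and hippocampal identity genes in each of the 12 libraries, in CPM on a log axis, with cortex in red, dHPC in blue, circles for acute and squares for chronic saline, and dHPC chronic replicates 5 (yellow) and 6 (green) marked. Tbr1, Cux2 and Rorb lay higher in all cortex libraries, Prox1, C1ql2, Dsp, Zbtb20, Nr3c2, Spink8, Fibcd1, Amigo2, Rgs14, Iyd and Grik4 lay higher in all dHPC libraries, and Fezf2, Foxp2, Rprm, Wfs1 and Bok overlapped.

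Dentate granule neuron genes showed differences of up to 188-fold. Of 16 genes 12 were called higher in dHPC, 9 of them at least 2-fold, and 2 higher in cortex (median 1.30). Prox1, the homeodomain factor that fixes granule neuron fate (1:189850232-189902911, minus strand), ran from 10.6 to 14.2 CPM in cortex (median 11.7) and from 79.7 to 132 CPM in dHPC (median 126), a difference of 3.31 ± 0.12 (SE, FDR = 3.57e-11). C1ql2, a secreted complement C1q-like protein of mossy fiber synapses (1:120268312-120270903, plus strand), ran from 0.409 to 1.02 CPM in cortex (median 0.544) and from 48.8 to 95.0 CPM in dHPC (median 77.0) and differed by 6.86 ± 0.21 (SE, FDR = 1.08e-11), or 116-fold. Dsp, which encodes the desmosomal protein desmoplakin (13:38335270-38382553, plus strand), ran from 0.116 to 0.825 CPM in cortex (median 0.509) and from 52.2 to 103 CPM in dHPC (median 91.8), a difference of 7.56 ± 0.27 (SE, FDR = 4.08e-11), or 188-fold. In all 3 genes the lowest dHPC library was chronic replicate 5, and it still lay above every cortex library. Lct, the lactase gene, ran from 1.39 to 2.86 CPM in cortex (median 1.99) and from 49.5 to 61.8 CPM in dHPC (median 58.8) and differed by 4.83 ± 0.13 (SE, FDR = 3.66e-12). Tdo2, a tryptophan dioxygenase, was higher in every dHPC library (4.37 ± 0.29, SE, FDR = 1.53e-08). Calb1, a calcium buffer of granule neurons and of many cortical neurons, ran from 89.98 to 166 CPM in cortex (median 118) and from 79.4 to 104 CPM in dHPC (median 85.6) and was called higher in cortex by a small margin (-0.48 ± 0.12, SE, FDR = 0.00356) with overlapping libraries. Opposite-strand exons overlap Prox1, Dsp and Tdo2.

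Genes of the adult neurogenic niche were higher in dHPC, with 10 of 13 called higher there, 6 of them at least 2-fold, and 1 called higher in cortex (median 0.92). Igfbpl1, which marks immature neurons, ran from 0 to 0.347 CPM in cortex (median 0.112) and from 3.64 to 7.97 CPM in dHPC (median 6.38), a difference of 5.50 ± 0.35 (SE, FDR = 1.03e-08). Eomes, the Tbr2 factor of intermediate progenitors, ran from 0 to 0.257 CPM in cortex (median 0.0415) and from 0.435 to 1.33 CPM in dHPC (median 1.08) and differed by 3.84 ± 0.53 (SE, FDR = 2.73e-05). Both were low, but no dHPC library fell to the cortex range. The proliferation genes Top2a and Mki67 had log2 fold changes of 3.83 ± 0.24 (SE, FDR = 7.49e-09) and 3.21 ± 0.24 (SE, FDR = 5.74e-08), and Draxin, an axon guidance gene, one of 2.96 ± 0.22 (SE, FDR = 4.04e-08). Igfbpl1, Mki67, Top2a and Draxin each had their highest dHPC value in chronic replicate 5, the library with the high striatal sum, and their lowest in chronic replicate 6, which also had the lowest sum of the list (154.8 CPM, against 173 to 179 CPM in the other dHPC libraries). These genes were also present in the striatum of saline mice, whose libraries were made in another batch. The striatal kit kept the strand and the sequencing platform differed, so levels in striatum and dHPC are not one measure. Igfbpl1 was at 7.54 ± 3.91 CPM in dorsal and 7.47 ± 4.07 CPM in ventral striatum, against 6.17 ± 1.58 CPM in dHPC (SD, n = 6 each). Mki67 was at 11.05 ± 8.22 CPM in dorsal striatum and 7.96 ± 2.50 CPM in dHPC, Top2a at 10.35 ± 5.42 and 6.13 ± 1.48 CPM, and Draxin at 2.88 ± 1.95 and 2.63 ± 0.54 CPM. The part of neighbouring tissue in these differences was not tested. Dcx, the microtubule protein of migrating neurons, went the other way: it ran from 21.6 to 36.8 CPM in cortex (median 27.5) and from 13.4 to 20.4 CPM in dHPC (median 18.4) and was higher in all cortex libraries (-0.70 ± 0.13, SE, FDR = 0.000355). Opposite-strand exons overlap Igfbpl1 and Eomes.

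Of 10 CA1 genes 7 were called higher in dHPC, 5 of them at least 2-fold, and 2 higher in cortex (median 1.15). Without dHPC chronic replicate 6, whose CA1 sum was 1205 CPM against 758.9 to 905.2 CPM in the other dHPC libraries, 6 were called higher in dHPC and 3 higher in cortex. Spink8, a serine protease inhibitor of pyramidal neurons (9:109641348-109655701, plus strand), ran from 0.250 to 0.638 CPM in cortex (median 0.315) and from 8.47 to 14.1 CPM in dHPC (median 10.9), a difference of 4.91 ± 0.20 (SE, FDR = 1.26e-10). Fibcd1, a chitin-binding receptor gene (2:31703302-31736017, minus strand), ran from 7.41 to 14.0 CPM in cortex (median 9.29) and from 79.2 to 127 CPM in dHPC (median 91.3) and differed by 3.28 ± 0.15 (SE, FDR = 3.8e-10). Lefty1, a Nodal antagonist, ran from 0.369 to 0.713 CPM in cortex (median 0.555) and from 8.47 to 11.0 CPM in dHPC (median 9.33) and differed by 4.10 ± 0.13 (SE, FDR = 1.12e-11). Neither these 3 genes nor Gpr161, a ciliary receptor (2.77 ± 0.19, SE, FDR = 2.9e-08), overlapped between the regions. Opposite-strand exons overlap Lefty1 and Gpr161.

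CA2 genes were called higher in dHPC in 7 of 10 cases and in none higher in cortex (median 1.71). Avpr1b, the vasopressin receptor of CA2, had at most 3 counts in each cortex library and ran from 0.221 to 0.759 CPM in dHPC, which makes it at least 9.24-fold higher there when 3 counts per library are taken as the floor. Amigo2, an adhesion molecule (15:97142006-97145168, minus strand), ran from 4.93 to 6.36 CPM in cortex (median 5.68) and from 17.2 to 33.6 CPM in dHPC (median 23.8), a difference of 2.09 ± 0.15 (SE, FDR = 2.79e-08). Rgs14, a regulator of G protein signalling (13:55517545-55532500, plus strand), ran from 25.3 to 38.7 CPM in cortex (median 31.0) and from 70.3 to 116 CPM in dHPC (median 83.4) and differed by 1.49 ± 0.12 (SE, FDR = 8.42e-08), and neither it nor Amigo2 overlapped. Sostdc1, a secreted antagonist of BMP and Wnt signals, ran from 0.113 to 1.18 CPM in cortex (median 0.203) and from 1.33 to 19.6 CPM in dHPC (median 15.4) and differed by 5.32 ± 0.60 (SE, FDR = 3.79e-06), with its lowest dHPC value in chronic replicate 6, the library with little choroid plexus RNA, and its highest cortex value in acute replicate 6, the cortex library with the highest choroid plexus sum. Ccdc3, a called member, lost its call with mouse as a block (FDR = 0.16). Opposite-strand exons overlap Amigo2.

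The CA3 list had 6 of 8 genes called higher in dHPC and 1 higher in cortex (median 0.71). Iyd, which encodes iodotyrosine deiodinase (10:3490240-3504877, plus strand), ran from 0.0385 to 0.250 CPM in cortex (median 0.110) and from 2.18 to 6.48 CPM in dHPC (median 4.35), a difference of 5.11 ± 0.35 (SE, FDR = 2.12e-08). Grik4, a kainate receptor subunit of mossy fiber synapses (9:42429431-42855789, minus strand), ran from 17.3 to 24.6 CPM in cortex (median 21.0) and from 31.5 to 52.7 CPM in dHPC (median 37.7) and differed by 0.90 ± 0.13 (SE, FDR = 4.73e-05). Neither gene overlapped, and the copine gene Cpne4 was also higher in every dHPC library (1.33 ± 0.15, SE, FDR = 3.61e-06). Bok, a BCL2 family gene (1:93613382-93623486, plus strand), ran from 35.3 to 42.8 CPM in cortex (median 38.1) and from 34.4 to 77.5 CPM in dHPC (median 56.5), with overlap, and differed by 0.52 ± 0.17 (SE, FDR = 0.0195), a call that was lost with mouse as a block (FDR = 0.27). Coch, the cochlin gene, was the member higher in cortex: it ran from 37.2 to 41.8 CPM in cortex (median 41.1) and from 3.20 to 30.5 CPM in dHPC (median 10.0) with its highest dHPC value in chronic replicate 5, and differed by -1.69 ± 0.34 (SE, FDR = 0.000852). Opposite-strand exons overlap Cpne4 and Coch.

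Of 6 hilar mossy cell genes 5 were called higher in dHPC and 1 higher in cortex (median 0.55), with 4 overlapping. Calcrl, a receptor of the calcitonin gene-related peptide family, ran from 3.47 to 4.61 CPM in cortex (median 3.79) and from 5.00 to 6.07 CPM in dHPC (median 5.75), a difference of 0.53 ± 0.09 (SE, FDR = 0.000227). Nmb, the neuromedin B gene, ran from 0.754 to 0.864 CPM in cortex (median 0.801) and from 1.02 to 2.20 CPM in dHPC (median 1.75) and differed by 1.09 ± 0.17 (SE, FDR = 8.32e-05), and neither gene overlapped. The calls of Csf2rb2 (FDR = 0.402) and Ajap1 (FDR = 0.139) were lost with mouse as a block. Drd2, also on the striatal list, had the largest value of the list and is described with that list.

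Genes that mark hippocampal neurons across fields were called higher in dHPC in 8 of 12 cases, all at least 2-fold, and in 1 case higher in cortex (median 1.87). Zbtb20, a zinc finger factor required for the identity of hippocampal pyramidal neurons (16:42696244-43462965, plus strand), ran from 43.0 to 56.1 CPM in cortex (median 48.5) and from 202 to 313 CPM in dHPC (median 216), a difference of 2.23 ± 0.09 (SE, FDR = 1.27e-10). Nr3c2, the mineralocorticoid receptor (8:77626070-77971641, plus strand), ran from 31.5 to 41.5 CPM in cortex (median 35.3) and from 139 to 200.2 CPM in dHPC (median 169) and differed by 2.26 ± 0.09 (SE, FDR = 7.33e-11). Cabp7, a calcium-binding protein gene, ran from 13.2 to 16.9 CPM in cortex (median 15.8) and from 153 to 269 CPM in dHPC (median 209.8) and differed by 3.76 ± 0.13 (SE, FDR = 3.5e-11). None of these genes overlapped between the regions, nor did Epha7, an ephrin receptor (1.82 ± 0.06, SE, FDR = 2.18e-11). Tyro3, a receptor tyrosine kinase, was the member higher in cortex: it ran from 207 to 276 CPM in cortex (median 248) and from 106 to 157 CPM in dHPC (median 119.9), a difference of -0.99 ± 0.09 (SE, FDR = 4.14e-07). The list of ventral hippocampus genes had 2 of 6 called higher in dHPC, 1 higher in cortex and 3 not called (median 0.12), and all 6 overlapped. Without dHPC chronic replicate 6 the counts were 1 and 1. Of the called ones Trhr (-1.06, FDR = 0.181) and Grp (1.01, FDR = 0.13) lost the call with mouse as a block, the FDR given here. Opposite-strand exons overlap Zbtb20, Nr3c2 and Cabp7.

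**Figure D3:**
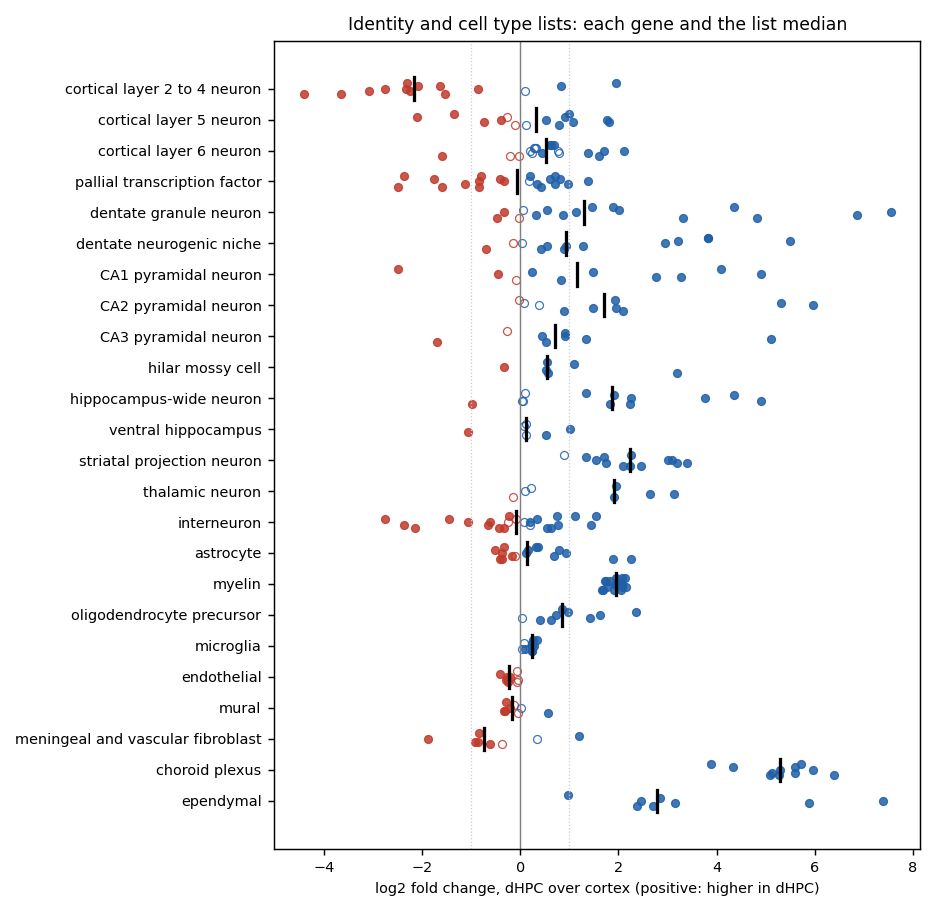
Log2 fold change, dHPC over cortex, of each gene of the identity, neighbouring-region and cell type lists, with blue for higher in dHPC, red for higher in cortex, filled circles for an FDR below 0.1, open circles otherwise, a black bar for the list median and dotted lines at a 2-fold difference. The medians ran from -2.17 for cortical layers 2 to 4 to 5.30 for the choroid plexus, against 0.01 over all tested genes.

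Promoter sequence is shown for 2 genes higher in dHPC, Prox1 and Iyd, and 2 higher in cortex, Cartpt, a neuropeptide gene, and Adra1b, an adrenergic receptor gene described below, because each holds a searched motif. The sequences are the 250 bases before the gene's start in the first window that RefSeq lists on GRCm38.p6, an older build than that of the counts, written 5′ to 3′ on the gene's strand with motifs in capitals. The motifs were the E-box CAGATG of NeuroD factors, the cAMP response element TGACGTCA, the AP-1 site TGANTCA and the TATA box TATAAA, each searched on both strands, so that CATCTG and TTTATA are the reverse complements of the first and the last. The Prox1 window lies at chr1:190170828-190171077 on the minus strand, with the E-box at -179 and the TATA box at -34 from the start. The Iyd window lies at chr10:3540024-3540273 on the plus strand, with the E-box at -39 and the TATA box at -29. The Cartpt window lies at chr13:99900684-99900933 on the minus strand, with the E-box at -161 and the cAMP response element at -112. The Adra1b window lies at chr11:43901238-43901487 on the minus strand, with the AP-1 site at -198.
Prox1: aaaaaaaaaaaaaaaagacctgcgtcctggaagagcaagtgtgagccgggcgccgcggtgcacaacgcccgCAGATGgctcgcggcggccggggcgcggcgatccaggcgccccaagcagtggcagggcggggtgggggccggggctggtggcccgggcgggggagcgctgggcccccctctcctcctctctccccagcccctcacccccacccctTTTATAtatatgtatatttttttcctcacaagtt
Iyd: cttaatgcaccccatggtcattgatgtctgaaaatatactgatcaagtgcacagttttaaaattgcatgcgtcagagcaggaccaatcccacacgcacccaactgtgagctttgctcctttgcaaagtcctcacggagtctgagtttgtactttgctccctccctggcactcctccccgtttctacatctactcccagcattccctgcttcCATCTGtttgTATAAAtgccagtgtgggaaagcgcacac
Cartpt: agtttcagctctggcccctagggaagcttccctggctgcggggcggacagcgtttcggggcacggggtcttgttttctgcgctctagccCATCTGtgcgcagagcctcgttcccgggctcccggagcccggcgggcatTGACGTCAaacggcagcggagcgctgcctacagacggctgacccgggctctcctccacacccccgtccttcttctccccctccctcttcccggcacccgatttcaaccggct
Adra1b: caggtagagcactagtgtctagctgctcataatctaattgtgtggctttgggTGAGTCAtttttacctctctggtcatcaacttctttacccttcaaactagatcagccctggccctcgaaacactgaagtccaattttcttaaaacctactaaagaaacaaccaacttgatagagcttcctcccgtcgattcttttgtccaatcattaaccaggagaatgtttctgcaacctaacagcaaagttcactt

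Such matches were not particular to one direction. Promoters were matched by symbol for 14840 of the tested genes and for 323 of the 450 list genes. The E-box was in 11.4% of the promoters of tested genes, in 15.2% of the 1328 promoters of genes at least 2-fold higher in dHPC and in 15.2% of the 847 of genes at least 2-fold higher in cortex. The TATA box was in 7.71%, 10.5% and 11.9%, the AP-1 site in 4.89%, 6.7% and 6.49%, and the cAMP response element in 2.34%, 1.58% and 1.65%. A match describes the letters of the window and not a site bound by a factor.

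Over all named genes with a mean of at least 1 CPM and no overlap, the 10 largest differences toward dHPC were in Dsp, Tmem212, Rtl3, C1ql2, Fam216b, Ccdc180, Spata18, Ccdc153, Spag16 and Igfbpl1. Beside the dentate genes Dsp and C1ql2 and the immature neuron gene Igfbpl1, the group held Spag16, which encodes a protein of the axoneme of motile cilia, and Tmem212 and Ccdc153, which are on the ependymal list. Spag16 ran from 0 to 0.135 CPM in cortex (median 0.0415) and from 0.574 to 3.96 CPM in dHPC (median 3.14), a difference of 5.62 ± 0.52 (SE, FDR = 4.46e-07). Rtl3, a gene derived from a retrotransposon, ran from 0 to 0.0750 CPM in cortex (median 0) and from 2.04 to 3.97 CPM in dHPC (median 3.36) and differed by 7.21 ± 0.41 (SE, FDR = 3.45e-09), and neither gene overlapped. The log2 fold changes of Fam216b, Ccdc180 and Spata18 were 6.21, 6.16 and 6.02, and in each the lowest dHPC value, 0.530, 0.574 and 0.353 CPM, was in chronic replicate 6, the library with the lowest ependymal sum. Opposite-strand exons overlap Dsp, Fam216b, Ccdc180, Spata18, Ccdc153 and Igfbpl1.

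The 10 largest toward cortex were Or4d1, Adam33, Mdfic2, Igfn1, Xirp2, Or51e2, Tspan11, Tgm3, Cd6 and Tcap, several of which are best known outside the brain. Adam33, a metalloprotease gene, ran from 10.0 to 16.5 CPM in cortex (median 12.6) and from 0.219 to 0.653 CPM in dHPC (median 0.329), a difference of -5.10 ± 0.21 (SE, FDR = 1.58e-10). Igfn1, an immunoglobulin-like gene known from skeletal muscle, ran from 37.2 to 77.8 CPM in cortex (median 46.9) and from 1.10 to 3.94 CPM in dHPC (median 2.40) and differed by -4.40 ± 0.25 (SE, FDR = 3e-09). Mdfic2 ran from 7.17 to 10.7 CPM in cortex (median 8.70) and from 0.0876 to 0.565 CPM in dHPC (median 0.208) and differed by -4.98 ± 0.28 (SE, FDR = 3.32e-09). There was no overlap in these genes between the regions. The olfactory receptor genes Or4d1 and Or51e2 had log2 fold changes of -5.42 ± 0.43 (SE, FDR = 1.05e-07) and -4.19 ± 0.37 (SE, FDR = 3.3e-07), and the muscle genes Xirp2 and Tcap ones of -4.29 ± 0.16 (SE, FDR = 7.82e-11) and -3.82 ± 0.22 (SE, FDR = 3.24e-09). Tspan11, a tetraspanin, Tgm3, a transglutaminase, and Cd6, a T cell surface receptor, differed by -3.96, -3.86 and -3.83. Opposite-strand exons overlap Mdfic2, Xirp2, Cd6 and Tcap.

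Myelin genes were higher in dHPC without exception among the 16 listed, each at least 2-fold and without overlap (median 1.94, from 1.67 to 2.16). Mbp, the myelin basic protein, ran from 507 to 1204 CPM in cortex (median 974) and from 2789 to 4190 CPM in dHPC (median 3524) and differed by 1.91 ± 0.15 (SE, FDR = 9.99e-08). Cortex chronic replicate 3 had the lowest myelin sum, 1360 CPM, against 2936 CPM in the highest cortex library and 7426 to 11010 CPM in dHPC. Of 9 oligodendrocyte precursor genes 8 were called higher in dHPC and none in cortex (median 0.85). Enpp6, which marks newly formed oligodendrocytes, ran from 1.98 to 3.47 CPM in cortex (median 3.17) and from 11.1 to 20.4 CPM in dHPC (median 15.96) and had the largest difference of that list (2.37 ± 0.11, SE, FDR = 5.91e-10). Opposite-strand exons overlap Mbp.

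Astrocyte genes were divided, with 9 of 16 called higher in dHPC and 6 higher in cortex (median 0.13), or 7 and 6 without dHPC chronic replicate 6. Gfap, the intermediate filament of fibrous astrocytes, ran from 52.6 to 109 CPM in cortex (median 74.3) and from 274 to 445 CPM in dHPC (median 391.60), a difference of 2.26 ± 0.15 (SE, FDR = 1.65e-08). Aldh1l1, a folate enzyme found across astrocytes, ran from 62.2 to 72.5 CPM in cortex (median 64.9) and from 43.8 to 49.2 CPM in dHPC (median 45.7) and was higher in cortex by a log2 difference of -0.52 ± 0.04 (SE, FDR = 2.48e-07). Both were without overlap. Microglial genes differed little: 8 of 10 were called higher in dHPC, none at least 2-fold (median 0.24, at most 0.33). Endothelial genes were called higher in cortex in 5 of 8 cases and in none in dHPC (median -0.23), among them the endothelial cadherin Cdh5 (-0.42 ± 0.08, SE, FDR = 0.000499). Of 8 mural genes 4 were called higher in cortex and 1 in dHPC, and of 8 meningeal and vascular fibroblast genes 5 were called higher in cortex and 1 in dHPC (5 and 2 without dHPC chronic replicate 5), with Slc22a6, an organic anion transporter, at -1.88 ± 0.23 (SE, FDR = 9.76e-06). The small differences of S100b (FDR = 0.254) and C1qc (FDR = 0.142) lost their call with mouse as a block. Opposite-strand exons overlap Aldh1l1 and Cdh5.

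Genes of the ventricular lining were among the largest differences. All 11 choroid plexus genes were called higher in dHPC, each at least 2-fold (median 5.30), yet in 10 of them the libraries overlapped, and the median without dHPC chronic replicate 6 was 5.49. Ttr, which encodes the transthyretin that the choroid plexus secretes, ran from 4.74 to 116 CPM in cortex (median 11.1) and from 16.1 to 3005 CPM in dHPC (median 2193), with its lowest dHPC value in chronic replicate 6 and its highest cortex value in acute replicate 6, and differed by 6.39 ± 1.01 (SE, FDR = 9.06e-05). Kl, the klotho gene, was the member without overlap, with a range from 1.501 to 4.46 CPM in cortex (median 1.81) and from 21.2 to 128 CPM in dHPC (median 93.3) and a difference of 5.30 ± 0.37 (SE, FDR = 2.76e-08). All 8 ependymal genes were called higher in dHPC, 7 at least 2-fold (median 2.78). Tmem212 had at most 3 counts in each cortex library and ran from 0.773 to 5.96 CPM in dHPC, at least 61.8-fold higher with 3 counts per library as the floor. Foxj1, the master regulator of motile cilia, ran from 1.75 to 3.63 CPM in cortex (median 2.53) and from 6.36 to 22.4 CPM in dHPC (median 19.1) and differed by 2.71 ± 0.25 (SE, FDR = 4.01e-07). The list medians are the same with Avpr1b and Tmem212 at their bounds. Opposite-strand exons overlap Ttr and Ccdc153.

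The striatal projection neuron sum was highest in dHPC chronic replicate 5 (2891 CPM) and lowest in dHPC chronic replicate 6 (213.2 CPM), below every cortex library. The remaining dHPC libraries held 606.5 to 971.4 CPM, above the highest cortex library (395.9 CPM). Of 13 genes 12 were called higher in dHPC and each at least 2-fold (median 2.23), but no gene was without overlap. Without dHPC chronic replicate 6 all 13 were called higher in dHPC (median 2.42). Without dHPC chronic replicate 5 the median was 1.37 with 12 genes still called. Drd2, the dopamine receptor of indirect-pathway neurons, ran from 1.97 to 6.71 CPM in cortex (median 2.86) and from 2.96 to 104 CPM in dHPC (median 19.4), a difference of 3.19 ± 0.65 (SE, FDR = 0.00085), which was 2.30 without that library. Drd1, the dopamine receptor of direct-pathway neurons, ran from 4.16 to 9.15 CPM in cortex (median 7.13) and from 5.81 to 88.6 CPM in dHPC (median 20.8) and differed by 2.08 ± 0.48 (SE, FDR = 0.00203), or 1.37 without it. Adora2a, the adenosine receptor that accompanies Drd2, ran from 2.97 to 8.66 CPM in cortex (median 4.83) and from 3.40 to 132 CPM in dHPC (median 27.6) and differed by 3.01 ± 0.62 (SE, FDR = 0.000918), or 2.13 without it. The highest dHPC value of all 3 genes was that of chronic replicate 5. In the ethanol mice, none of whose libraries are in this contrast, 6 of the 13 genes were called higher in dHPC and 1 in cortex (median 0.62). Of 7 thalamic genes 4 were called higher in dHPC and none in cortex (median 1.90), among them Prkcd, a protein kinase C, which ran from 5.45 to 8.67 CPM in cortex (median 7.89) and from 20.3 to 88.5 CPM in dHPC (median 38.4) (2.65 ± 0.30, SE, FDR = 3.44e-06), and the Wnt effector Tcf7l2 (1.90 ± 0.20, SE, FDR = 1.81e-06). Opposite-strand exons overlap Drd2, Prkcd and Tcf7l2.

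Interneuron genes were called higher in cortex in 10 of 23 cases and higher in dHPC in 9 (median -0.08), with 15 overlapping. Vip, the peptide of a class of disinhibitory interneurons, ran from 26.2 to 45.7 CPM in cortex (median 36.3) and from 4.43 to 11.3 CPM in dHPC (median 8.23), a difference of -2.15 ± 0.18 (SE, FDR = 2e-07). Crh, corticotropin-releasing hormone, ran from 3.54 to 6.13 CPM in cortex (median 5.24) and from 0.635 to 1.15 CPM in dHPC (median 1.04) and differed by -2.37 ± 0.16 (SE, FDR = 2.4e-08). Pvalb, the calcium buffer of fast-spiking interneurons, ran from 38.9 to 79.3 CPM in cortex (median 62.1) and from 18.3 to 27.6 CPM in dHPC (median 21.1) and differed by -1.44 ± 0.15 (SE, FDR = 1.41e-06). None of these genes overlapped between the regions. Npy, neuropeptide Y, was about 2-fold higher in cortex (-1.06 ± 0.06, SE, FDR = 2.07e-09), and Nos1, neuronal nitric oxide synthase, was the member without overlap in the other direction: it ran from 27.1 to 35.5 CPM in cortex (median 30.1) and from 63.2 to 70.3 CPM in dHPC (median 67.3), a difference of 1.12 ± 0.08 (SE, FDR = 1.64e-08). Chodl, called higher in dHPC, lost the call with mouse as a block (FDR = 0.114). Opposite-strand exons overlap Nos1.

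Glutamate receptor subunits differed by subtype. Of 18 AMPA, kainate, delta and NMDA receptor genes 6 were called higher in dHPC and 7 higher in cortex (median -0.05), with 10 overlapping. Gria1, the GluA1 subunit of AMPA receptors, ran from 266 to 289 CPM in cortex (median 273) and from 761 to 1030 CPM in dHPC (median 897), a difference of 1.71 ± 0.06 (SE, FDR = 3.5e-11). Gria4, the GluA4 subunit, ran from 91.4 to 106 CPM in cortex (median 103) and from 42.9 to 48.5 CPM in dHPC (median 47.9) and differed by -1.11 ± 0.05 (SE, FDR = 2.29e-10). Each was at least 2-fold different without overlap, in opposite directions. Grik2, a kainate receptor subunit, was higher in dHPC by 0.68 ± 0.07 (SE, FDR = 2.13e-06). The call of Grin2c (FDR = 0.68) was lost with mouse as a block. All 7 metabotropic receptor genes tested were called, 2 higher in dHPC and 5 in cortex (median -0.46), and none reached 2-fold. Grm8, a group III receptor, differed by -0.79 ± 0.17 (SE, FDR = 0.00161). Opposite-strand exons overlap Gria4 and Grm8.

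Of 13 GABA-A receptor genes 4 were called higher in dHPC and 6 higher in cortex (median -0.39), with 6 overlapping. Gabra5, the alpha5 subunit of extrasynaptic receptors in hippocampal pyramidal neurons, ran from 42.9 to 49.1 CPM in cortex (median 46.1) and from 129 to 185 CPM in dHPC (median 166), a difference of 1.79 ± 0.08 (SE, FDR = 5.69e-10). Gabra3, the alpha3 subunit, ran from 113.04 to 129 CPM in cortex (median 121) and from 32.7 to 57.5 CPM in dHPC (median 38.2) and differed by -1.53 ± 0.12 (SE, FDR = 1.2e-07). Neither overlapped. Gabrd, the delta subunit of tonic inhibition, was higher in cortex by a log2 difference of -0.97 ± 0.13 (SE, FDR = 2.81e-05), also without overlap. Opposite-strand exons overlap Gabra5 and Gabrd.

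**Figure D4:**
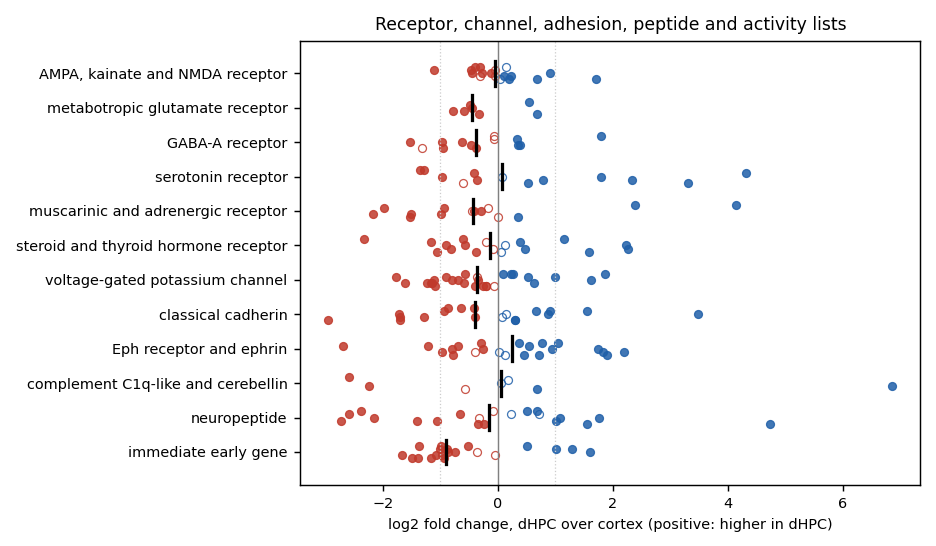
Log2 fold change, dHPC over cortex, of each gene of the receptor, channel, adhesion, peptide and activity lists, drawn as in the plot of identity lists (blue higher in dHPC, red higher in cortex, filled for an FDR below 0.1, black bar for the median, dotted lines at 2-fold). List medians lay between -0.91 (immediate early genes) and 0.25 (Eph receptors and ephrins), while single members such as C1ql2, Nts, Htr4 and Chrm5 reached over 4.

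Among 13 serotonin receptor genes 6 were called higher in dHPC and 5 higher in cortex (median 0.08), with 8 overlapping. Htr4, a receptor coupled to adenylyl cyclase, ran from 0.405 to 0.900 CPM in cortex (median 0.524) and from 8.89 to 13.3 CPM in dHPC (median 11.8), a difference of 4.32 ± 0.15 (SE, FDR = 3.97e-11), or 20-fold. Htr5b ran from 0.338 to 0.597 CPM in cortex (median 0.453) and from 3.43 to 5.52 CPM in dHPC (median 4.68) and differed by 3.31 ± 0.14 (SE, FDR = 2.16e-10). Htr2a, the receptor of classical psychedelics, ran from 31.3 to 40.4 CPM in cortex (median 34.9) and from 11.2 to 16.2 CPM in dHPC (median 13.8) and differed by -1.36 ± 0.09 (SE, FDR = 1.05e-08) toward cortex. None of these genes overlapped between the regions, nor did Htr5a (-1.29 ± 0.07, SE, FDR = 2.12e-09) and Htr2c (2.33 ± 0.19, SE, FDR = 1.1e-07), the latter also abundant in the choroid plexus. The calls of Htr1d (FDR = 0.131) and Htr1f (FDR = 0.119) were lost with mouse as a block. Of 14 muscarinic and adrenergic receptor genes 3 were called higher in dHPC and 8 higher in cortex (median -0.43), with 2 and 8 without dHPC chronic replicate 5 and 3 and 10 without replicate 6. The regions overlapped in 7 of the 14. Adra1b, an alpha-1 adrenergic receptor whose promoter is printed above, ran from 24.8 to 37.3 CPM in cortex (median 32.1) and from 5.06 to 9.09 CPM in dHPC (median 6.67) and differed by -2.17 ± 0.15 (SE, FDR = 2.11e-08). Adra1a and Adrb1, further adrenergic receptors, were higher in cortex by log2 differences of -1.53 ± 0.11 (SE, FDR = 2.84e-08) and -1.51 ± 0.11 (SE, FDR = 5.32e-08). Chrm5, a muscarinic receptor, ran from 0.0368 to 0.0773 CPM in cortex (median 0.0503) and from 0.505 to 1.47 CPM in dHPC (median 0.989) and was higher in dHPC (4.14 ± 0.35, SE, FDR = 1.92e-07). No library of one region entered the range of the other for these 4 genes. Opposite-strand exons overlap Htr5b, Htr2c and Adrb1.

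Of 18 steroid, thyroid and related nuclear receptor genes 6 were called higher in dHPC and 8 higher in cortex (median -0.14), with 8 overlapping. The 2 corticosteroid receptors went in opposite directions: Nr3c2, described above, was higher in dHPC, and Nr3c1, the glucocorticoid receptor, ran from 118 to 128 CPM in cortex (median 120.2) and from 83.7 to 101 CPM in dHPC (median 93.2) and was higher in cortex by a log2 difference of -0.39 ± 0.04 (SE, FDR = 3.64e-06). Pgr, the progesterone receptor, ran from 42.2 to 45 CPM in cortex (median 44.2) and from 18.4 to 24.6 CPM in dHPC (median 20.4) and differed by -1.06 ± 0.07 (SE, FDR = 1.64e-08). Thra, a thyroid hormone receptor, ran from 452 to 558 CPM in cortex (median 504) and from 636 to 782 CPM in dHPC (median 686) and was higher in dHPC by 0.47 ± 0.06 (SE, FDR = 8.42e-06). None of these 4 genes overlapped. Opposite-strand exons overlap Nr3c2, Nr3c1, Pgr and Thra.

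Voltage-gated potassium channel genes were called higher in cortex in 16 of 27 cases and higher in dHPC in 8 (median -0.36), with 9 overlapping. Kcns1, a modifier subunit, ran from 28.5 to 39.0 CPM in cortex (median 37.1) and from 9.10 to 11.5 CPM in dHPC (median 10.5), a difference of -1.77 ± 0.08 (SE, FDR = 2.16e-10). Kcnv1, another modifier subunit, was higher in cortex by a log2 difference of -1.62 ± 0.10 (SE, FDR = 5.56e-09). In the other direction Kcng2, a modifier subunit, ran from 5.91 to 9.35 CPM in cortex (median 7.17) and from 15.7 to 28.9 CPM in dHPC (median 22.8) (1.62 ± 0.14, SE, FDR = 3.06e-07), and Kcna4, the Kv1.4 channel, ran from 14.1 to 17.4 CPM in cortex (median 15.3) and from 26.1 to 41.6 CPM in dHPC (median 30.0) (0.99 ± 0.10, SE, FDR = 1.03e-06). None of these genes overlapped. The call of Kcns2 (FDR = 0.442) was lost with mouse as a block. Opposite-strand exons overlap Kcns1, Kcnv1 and Kcng2.

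Adhesion and guidance genes separated the regions by member. Of 19 classical cadherins 10 were called higher in cortex and 7 higher in dHPC (median -0.40), with 6 overlapping. Cdh1, the epithelial cadherin, ran from 0.927 to 3.55 CPM in cortex (median 2.28) and from 0.0876 to 0.551 CPM in dHPC (median 0.132), a difference of -2.95 ± 0.43 (SE, FDR = 4.43e-05). Cdh22 and Cdh6 were higher in cortex by log2 differences of -1.73 ± 0.14 (SE, FDR = 1.16e-07) and -1.71 ± 0.11 (SE, FDR = 1.1e-08), and Cdh9, a cadherin of CA3 and dentate synapses, and Cdh8 were higher in dHPC by 1.55 ± 0.16 (SE, FDR = 1.26e-06) and 0.87 ± 0.08 (SE, FDR = 5.49e-07). There was no overlap in these genes. Of 22 Eph receptors and ephrins 11 were called higher in dHPC and 8 higher in cortex (median 0.25), with 8 overlapping. Efna5, a repulsive ligand in axon guidance, ran from 27.2 to 34.6 CPM in cortex (median 30.7) and from 3.33 to 6.19 CPM in dHPC (median 5.05) and differed by -2.70 ± 0.13 (SE, FDR = 8.67e-10). Efnb3, another ephrin, ran from 21.9 to 38.0 CPM in cortex (median 28.4) and from 117 to 149.7 CPM in dHPC (median 137) and differed by 2.19 ± 0.11 (SE, FDR = 1.01e-09). The ligands thus lay on opposite sides without overlap, and so did the receptors Epha6 (1.90 ± 0.07, SE, FDR = 8.99e-11) and Ephb6 (-1.21 ± 0.08, SE, FDR = 9.16e-09). The calls of Ephb4 (FDR = 0.117) and Efnb1 (FDR = 0.221) were lost with mouse as a block. Opposite-strand exons overlap Cdh6, Cdh9, Cdh8, Epha6 and Ephb6.

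Of the 7 complement C1q-like and cerebellin genes tested, C1ql4 having too few counts, 2 were called higher in dHPC and 2 higher in cortex (median 0.05). The regions overlapped in 3 of the 7. C1ql2 is described with the dentate genes. Cbln2, a cerebellin that bridges neurexins to postsynaptic receptors, ran from 34.4 to 47.9 CPM in cortex (median 40.1) and from 4.23 to 9.37 CPM in dHPC (median 6.86), a difference of -2.59 ± 0.16 (SE, FDR = 6.45e-09). Cbln4 ran from 15.8 to 30.6 CPM in cortex (median 22.4) and from 4.02 to 5.57 CPM in dHPC (median 4.62) and differed by -2.24 ± 0.12 (SE, FDR = 1.68e-09), and neither overlapped. Opposite-strand exons overlap Cbln2 and Cbln4.

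Of 20 neuropeptide genes 7 were called higher in dHPC and 9 higher in cortex (median -0.16), with 11 overlapping. Cartpt, whose promoter is printed above, ran from 4.47 to 11.4 CPM in cortex (median 6.27) and from 0.832 to 1.36 CPM in dHPC (median 1.02), a difference of -2.72 ± 0.23 (SE, FDR = 2.13e-07). Adcyap1, which encodes the peptide PACAP, ran from 12.2 to 20.9 CPM in cortex (median 16.2) and from 1.22 to 4.70 CPM in dHPC (median 2.90) and differed by -2.59 ± 0.25 (SE, FDR = 8.64e-07). Nts, the neurotensin gene, ran from 0 to 0.525 CPM in cortex (median 0.244) and from 2.08 to 13.7 CPM in dHPC (median 5.95) and differed by 4.72 ± 0.56 (SE, FDR = 6.4e-06) toward dHPC. None of these genes overlapped. The call of Trh was lost with mouse as a block (FDR = 0.459). Opposite-strand exons overlap Adcyap1.

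Immediate early genes, which neuronal activity induces within minutes to hours, were called higher in cortex in 14 of 20 cases and higher in dHPC in 4 (median -0.91), with 16 of 20 overlapping. In the acute libraries alone the counts were 15 and 4 (median -1.23), and in the chronic libraries alone 11 and 4 (median -0.53). The summed level in cortex was 1682 to 2483 CPM in acute and 950.2 to 1326 CPM in chronic libraries, against 791.7 to 1232 CPM in dHPC. Egr1, a zinc finger factor, ran from 222 to 575 CPM in cortex (median 284) and from 104 to 168 CPM in dHPC (median 119.7), a difference of -1.40 ± 0.17 (SE, FDR = 5.69e-06). Homer1, a postsynaptic scaffold with an activity-induced short form, ran from 162 to 294 CPM in cortex (median 196) and from 83.0 to 126 CPM in dHPC (median 99.8) and differed by -1.01 ± 0.11 (SE, FDR = 3.41e-06). These were the 2 members with all cortex libraries above all dHPC libraries. Fos ran from 10.1 to 67.5 CPM in cortex (median 30.2) and from 4.32 to 23.3 CPM in dHPC (median 10.2), with overlap, and differed by -1.49 ± 0.29 (SE, FDR = 0.000638). Jun and Nr4a3 were the 2 members with every dHPC library above every cortex library (1.02 ± 0.10 (SE, FDR = 1.43e-06) and 1.30 ± 0.24 (SE, FDR = 0.000417)). The calls of Junb (FDR = 0.418) and Egr2 (FDR = 0.139) were lost with mouse as a block. In the ethanol mice 6 of these genes were called higher in cortex and 5 higher in dHPC (median -0.37). Opposite-strand exons overlap Homer1 and Jun.

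Whether the regional difference depended on 1 against 10 saline injections was asked with the interaction of region and paradigm. EdgeR called 0 of 27224 genes (0%) at an FDR below 0.1, with a smallest FDR of 0.759, and 1735 genes (6.37%) had an unadjusted p below 0.05. DESeq2's Wald test called 34 genes, among them the immediate early gene Egr3 (log2 difference 0.82, FDR = 0.0511, against an edgeR FDR of 0.773). On counts simulated for this interaction over 26483 genes, edgeR recovered 61.4% of 2-fold and 88.7% of 4-fold differences, with 11.8% of its calls on unchanged genes. DESeq2 recovered 72.9% and 94.3%, with 29.7% of its calls on unchanged genes. The simulation changed a small set of genes above a count threshold and gave all others no regional difference, unlike these data. The genes with the smallest FDR were 1700121C10Rik, Gm30934, 1700099I09Rik, Gm8225 and Gm7143, all of them predicted or unnamed genes. The log2 fold change of 1700121C10Rik was -0.77 in acute and -0.33 in chronic saline mice, a difference of 0.44 ± 0.08 (SE, FDR = 0.759). That of Gm30934 was -0.27 and 0.26, a difference of 0.54 ± 0.09 (SE, FDR = 0.759). Ventral hippocampus and striatum were sequenced in another batch from a directional kit. There 1700121C10Rik had means of 0.0238 to 0.285 CPM in saline mice, against 133 CPM in cortex and 90.6 CPM in dHPC. Gm30934 had 0.11 to 0.2 CPM against 32.0 and 31.9 CPM, and 1700099I09Rik 0.0339 to 0.0838 CPM against 3.7 and 4.14 CPM. Gm8225 and Gm7143 had similar means in both batches. The part of antisense reads was not tested.

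The contrast was repeated in 6 cortex and 7 dHPC libraries of 8 other mice, which had received 2 g/kg ethanol once or on 10 days. There 13651 of 26975 genes (50.6%) differed at an FDR below 0.1, 6908 (25.6%) higher in dHPC and 6743 (25%) higher in cortex. Of the 2250 genes at least 2-fold higher in dHPC in saline mice and the 2006 in ethanol mice (7.44% of those tested) 1581 were shared, 70.3% of the former and 78.8% of the latter. Of the 1741 and 1712 (6.35% of those tested) at least 2-fold higher in cortex 1181 were shared, 67.8% and 69%. Only 1 of the 2250 genes and 0 of the 1741 were called in the opposite direction in ethanol mice. Among 449 list genes tested, 216 were called higher in dHPC and 153 higher in cortex in saline mice, 185 of them at least 2-fold, and 172 of these 185 were called the same way in ethanol mice and 0 the other way. The 13 others included the striatal genes Drd1, Ppp1r1b, Penk, Tac1, Gpr6 and Rxrg and the immediate early genes Fos, Egr2 and Nr4a1. The 172 were called at any fold in ethanol mice, whereas the shares of all genes above asked for 2-fold in both sets. The share of all genes under the list rule was not computed, so the list genes are not compared with it.

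The neuronal identity genes differed in the ethanol mice as follows. Dsp differed by 8.31 ± 0.21 (SE, FDR = 1.01e-13), C1ql2 by 7.26 ± 0.21 (SE, FDR = 3.31e-13) and Prox1 by 3.71 ± 0.12 (SE, FDR = 7.99e-13), each in the direction seen in saline mice. Rorb had a smaller difference there, -1.51 ± 0.17 (SE, FDR = 1.99e-06) against -2.33 in saline mice. The layer 6 list, with 8 genes called higher in dHPC and 1 higher in cortex in saline mice, had 5 and 7 in ethanol mice (median -0.35). For Foxp2 the value was -0.72 ± 0.31 (SE, FDR = 0.0708), and for Rprm -0.39 ± 0.14 (SE, FDR = 0.0372), both called higher in cortex in ethanol mice. The layer 5 list had 5 called higher in dHPC and 7 higher in cortex (median -0.15). The difference between saline and ethanol mice was not tested.

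**Figure D5:**
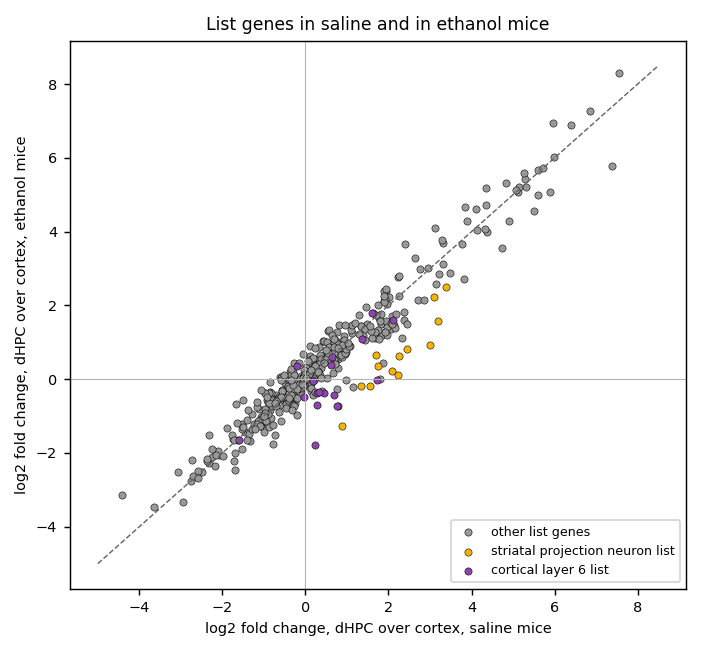
Log2 fold change, dHPC over cortex, of each list gene in saline mice (horizontal) and in ethanol mice (vertical), with the striatal list in yellow, the cortical layer 6 list in purple, other list genes in grey and a dashed line of equality. Of 185 list genes called at least 2-fold in saline mice 172 were called the same way, at any fold, in ethanol mice. The share of all genes under that rule was not computed. The median of the striatal list was 2.23 in saline and 0.62 in ethanol mice.

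At the isoform level 39439 of 136606 isoforms tested (28.9%) were called higher in dHPC and 36657 (26.8%) higher in cortex. Isoform counts share reads between overlapping isoforms, so an isoform call is not independent of its gene's call. Among 17606 genes with at least 2 isoforms tested, 23 (0.131%) had isoforms at least 2-fold different in both directions. The 8 with the largest smaller difference were Hkdc1, Cd4, Gm17751, 1700007F19Rik, Dtl, C730002L08Rik, Mhrt and Sema3a. Mhrt-236 spans the position of Myh7-206 on the opposite strand, and Myh7 was also among the 23. Mhrt-236 had means of 3.07 CPM in cortex and 1.04 CPM in dHPC, and Myh7-206 had 2.82 and 1.01 CPM. Whether both counts hold the same reads was not tested. Opposite-strand overlap of the other isoforms is not listed here. In Hkdc1, a hexokinase-domain gene, Hkdc1-203, a retained-intron transcript, fell from a mean of 1.74 CPM in cortex to 0.326 CPM in dHPC (log2 fold change -2.42), while Hkdc1-204, also with a retained intron, had means of 0.00316 and 0.0334 CPM (3.09). In Cd4, a T cell co-receptor gene, Cd4-203 had a log2 fold change of 2.56 and its highest value, 3.32 CPM, in dHPC chronic replicate 5, while Cd4-202 had one of -2.07 at means of 0.0159 CPM in cortex and 0.00313 CPM in dHPC. In Sema3a, a repellent axon guidance gene, Sema3a-208 had a log2 fold change of 3.48 at means of 0.00533 CPM in cortex and 0.0659 CPM in dHPC. Its highest value, 0.166 CPM, was in dHPC chronic replicate 5. Sema3a-209 had one of -1.56 at means of 1.26 and 0.429 CPM. Hkdc1-204, Cd4-202 and Sema3a-208 rest on few counts per library. Of the list genes only Pde10a, a phosphodiesterase gene of the striatal list, was among the 23, a gene named after its values were seen.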

How the data were processed

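Poly(A) RNA of 12 saline libraries (6 cortex, 6 dHPC) was analysed, with 13 libraries of ethanol mice for comparison. Per the submitters' notes, the authors used cutadapt 5.0 for trimming, STAR 2.7.10a for alignment to GRCm39 and counted read pairs with featureCounts 2.0.6 as reverse-stranded, multimapping and multi-overlapping pairs included, and the deposited values are raw counts per gene (56415) and isoform (218795). Reads carry no molecular identifiers, so that counts hold more than counting error.

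Genes that reached 5 counts in 2 or more libraries of any group (region and paradigm) were tested with edgeR 4.0.16 (quasi-likelihood F test, TMM, region and paradigm as terms, limma 3.58.1, R 4.3.3, with version 1.17.8 of data.table) and called at a Benjamini-Hochberg FDR below 0.1, with a second rule of at least 2-fold. Plots and summaries used Python 3.11.15, pandas 2.3.3 and matplotlib 3.10.9. The biological coefficient of variation was 0.127. No library pair held identical counts. A gene with at most 3 counts in each library of a region was taken to be at the floor, which was the case in cortex alone for 294 genes and in dHPC alone for 172. On simulated counts for the saline contrast (26494 genes) edgeR recovered 66.7% of 1.5-fold, 88.4% of 2-fold and 100% of 4-fold differences, with 12.4% of calls on unchanged genes. Only a small set of genes above a count threshold differed between the regions in that simulation, unlike in the data.

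The numbers in the labels mark the mouse, and 4 mice gave both regions. The main test held no mouse term and took all libraries as unpaired, and only the fits with mouse as a block used the pairing. Deviations from group means correlated at 0.00188, 0.0787, 0.0172 and 0.0295 within these mice. The highest correlations of the same cortex libraries with dHPC libraries of other mice of their paradigm were 0.0311, 0.00682, -0.00616 and -0.0134. The consensus correlation in limma was 0.0371. Alternatives were DESeq2 1.42.0, its size factors, other count filters, each library left out, mouse as a block, each paradigm alone, no paradigm term, genes with no opposite-strand overlap and a test against a 2-fold difference. List counts without dHPC chronic replicate 6 and with the mouse block were added after seeing the data.

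The contrast, the 36 gene lists (450 genes) and the named genes were chosen with earlier results of these data known. Named were 20 fixed identity genes, up to 4 called genes without overlap per list and direction, up to 2 per list with the smallest change, the 10 largest changes overall per direction (mean of at least 1 CPM, no overlap, no predicted gene), the 5 smallest interaction FDRs and 8 genes with isoforms called in both directions. The text describes the members of that set with the clearest roles, and some named genes are not reported here. Members called in the main test that lost the call with mouse as a block were added to it.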

Additional observations from a re-analysis of the deposited data

Results flagged for a closer look

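Within each region the highest and the lowest of the 6 libraries were set against the other 5 for 134 named genes and 36 list sums. A library stood apart when its gap to its nearest neighbour, as a share of the range, was above Dixon's 95% critical value. This held in 37 of 340 groups, or 10.9%. The 1 in 20 of that value holds for independent normal samples. These groups pool acute and chronic libraries in CPM and share genes, so no excess over chance is read from the 10.9%. Of the 37, 12 were in dHPC chronic replicate 5.

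In dHPC chronic replicate 5 the sums of the striatal list (2891 CPM), the mossy cell list (171.3 CPM, which holds Drd2) and the neuropeptide list (948.7 CPM, which holds Penk and Tac1) were high. Its levels of Adora2a (132 CPM), Drd2 (104.2 CPM), Drd1 (88.57 CPM), Coch (30.49 CPM), Foxp2 (30.34 CPM) and Rspo1 (2.999 CPM) were also the highest of the dHPC libraries. Its levels of Prox1 (79.66 CPM), Dsp (52.17 CPM) and Htr4 (8.887 CPM) were the lowest.

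In dHPC chronic replicate 6 the CA1 sum (1205 CPM) and Fibcd1 (127.3 CPM) were high, and the neurogenic niche sum (154.8 CPM), Kl (21.2 CPM) and Sostdc1 (1.325 CPM) were low. In the other dHPC libraries the highest values that stood apart were Zbtb20 (313.4 CPM) and Xirp2 (0.3144 CPM) in acute replicate 2, and Cux2 (28.31 CPM) and Or4d1 (0.1412 CPM) in acute replicate 5.

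In cortex acute replicate 6 the choroid plexus sum (133.4 CPM), Ttr (116 CPM), Drd2 (6.708 CPM), Kl (4.46 CPM) and Sostdc1 (1.179 CPM) were high. In cortex chronic replicate 3 the layer 5 sum (400.2 CPM), Mal (50.66 CPM) and Enpp6 (1.976 CPM) were low and Iyd (0.2498 CPM) was high. In cortex chronic replicate 5 Rprm (46.18 CPM) and Ccdc153 (0.2251 CPM) were high and Htr5a (21.35 CPM) was low. In cortex chronic replicate 6 Rorb (67.38 CPM) was high and Npy (57.62 CPM) was low. In cortex acute replicate 4 Eomes (0.2572 CPM) and Avpr1b (0.03675 CPM) were high, both at or near the level of a few counts.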

How the results depend on the processing

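The count of 15055 genes called between the regions in saline mice became 12985 in the acute and 9862 in the chronic libraries alone. Both of these fits hold the same number of libraries, and what set their counts apart was not tested. The count became 6225 of 12512 genes when only genes with no opposite-strand overlap were tested. In a test against a 2-fold difference it was 1970 (1230 higher in dHPC, 740 higher in cortex). Fewer libraries, fewer genes and a stricter test hold by construction in these settings. With each library left out the count of 15055 ran from 14226 to 14830, and 13651 in ethanol mice ran from 12723 to 13850. The region by paradigm count of 0 by edgeR was 34 by DESeq2 and 0 with each library left out. With mouse as a block 12434 genes were called, 6521 higher in dHPC and 5913 higher in cortex, 0 for the interaction, 12538 in ethanol mice and 61958 of the isoforms, and among the list genes given here the block changed no call other than those named in the report as lost with it and the added calls of Emx2, Gad2, Grik3, Nectin3, Osr1, Ramp3, Rln1, Slc6a11 and Tent5a. Among 134 named genes, 2 uncalled ones changed sign in 1 alternative each: Fezf2 ran from -0.1681 to 0.2662 with each library left out, the lowest without dHPC chronic replicate 6, and Rprm was -0.008732 with mouse as a block. All other named genes that lost a call did so in the test against a 2-fold difference, except Bok, which also lost it with the block and in the chronic libraries alone, and Coch, which also lost it in the chronic libraries alone. The ethanol and isoform counts and the total of 369 genes called in the gene lists (302 to 373) stayed within 1.5 times under the alternatives run. Counts of single lists moved by more: in the acute libraries alone layer 6 went from 8 to 14 and microglia from 8 to 4 higher in dHPC, and AMPA, kainate and NMDA receptors from 7 to 4 higher in cortex. In the chronic libraries alone interneurons went from 9 to 3, mossy cells from 5 to 3 and AMPA, kainate and NMDA receptors from 6 to 3 higher in dHPC, and these receptors from 7 to 4, ephrins and Eph receptors from 8 to 5, endothelial genes from 5 to 3, and layer 5 and mural genes from 4 to 2 higher in cortex. Other counts that moved by over 1.5 times were of at most 2 genes. Genes with under 1 CPM in 1 region rest on few counts there, so their fold changes are less certain than those of abundant genes.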
